A study of Homo sapiens with 6 samples.

Results

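The probe sets of human chromosome 14 were taken from 6 expression arrays of SKOV3, an established cell line from a human ovarian carcinoma. A probe set is the group of array probes that measures 1 transcript cluster, and every probe set whose identifier starts with TC14 was taken, with or without a gene name. There were 2280 such probe sets among 67528 transcript clusters (70523 probe sets on the array in all, controls included). Of the 2280, 879 carried 1 gene symbol (864 different genes), 23 carried several symbols and 1378 had no name in the annotation used. The groups were 3 arrays of the stable line with the empty vector (pLKO-Vector) and 3 arrays of the stable line with 1 hairpin against SND1 (shSND1-#2). Both lines grew without a drug in McCoy's 5A medium with 10% serum. Each group was 1 stable line and only 1 hairpin was used, so the hairpin, the line and the loss of SND1 cannot be told apart. The labels do not say that the 3 arrays of a group came from separate cultures, so their spread may be technical, and the title of 1 knockdown array holds an extra number of unstated meaning.

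Chromosome 14 is acrocentric: its short arm carries ribosomal RNA genes and its protein-coding genes lie on the long arm. From the centromere outwards the long arm holds olfactory receptor genes, the RNase A family, the T cell receptor alpha and delta locus, the granule proteases of leukocytes, a long stretch of housekeeping genes, the serpin A cluster, the imprinted DLK1-DIO3 domain with its many microRNA and small nucleolar RNA genes, and the immunoglobulin heavy chain locus. Housekeeping genes also lie between the first of these loci. Examples are APEX1 before the RNase A genes RNASE10 and RNASE1, METTL3 before the T cell receptor locus and PSMB5 between that locus and the granule proteases. The receptor loci and the granule proteases are used by lymphoid and myeloid cells, and many of the housekeeping genes encode proteasome subunits, RNA-processing factors, mitotic proteins and adhesion proteins.

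The members were chosen by chromosome, and the chromosome was selected on the same measured contrast that is described here (mean of the knockdown arrays minus mean of the vector arrays, in log2 units). The differences of its members are therefore a description, with no test of the chromosome, and they support nothing by themselves. A probe set is called lower or higher where limma, fitted over all 67528 transcript clusters with Benjamini-Hochberg adjustment, gave an adjusted p under 0.05. Over the whole array 6.55% of probe sets were called lower, 7.71% higher and 14.3% in either direction, and counts of called members below stand beside these shares with nothing read from them. The knockdown arrays lay wholly below the vector arrays for 13.9% of all probe sets and wholly above for 16.1%.

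SND1, the targeted gene, lies on another chromosome and was measured at log2 levels of 8.83, 8.60 and 8.80 on the vector arrays and 5.88, 5.70 and 5.99 on the knockdown arrays. No knockdown array reached the lowest vector array, and the difference was -2.89, at least 5.51-fold lower. The annotation lists SND1-IT1 for the same probe set. Array medians ran from 4.13 to 4.19, the median of all values was 4.16 (the median level) and the highest mean of 23 background control probe sets was 6.28 (the background level). Where the dimmer group did not exceed the background level a fold is given as a lower bound, and where neither group exceeded it the text prints no fold but the difference in log2 units, called within the background range. Arrays of 1 group correlated at r of 0.9953 to 0.9967 and arrays of different groups at 0.9846 to 0.9868, across probe sets, which are not independent replicates. Of 7 measured carcinoma line markers 6 lay above the background level in at least 1 group (WT1 did not), and none of the 17 measured markers of leukocytes, endothelium and fibroblasts did. Of these, COL1A1 was the highest in vector cells (4.76, and 4.32 in knockdown cells, called lower) and LUM the highest in knockdown cells (6.02, and 4.17 in vector cells, called higher); their part in the results was not tested.

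The promoters of 6 members are shown: SNAPC1, FERMT2 and FRMD6 were among the most lowered members, CCDC198 and SLC25A29 were the most raised, and ATP6V1D was among the 5 members whose difference was nearest to the chromosome's median difference. Each run is the 200 bases before the annotated start, 5′ to 3′ on the gene's strand, from RefSeq (GRCh38.p14). Capitals mark GGGCGG (the core of the GC box bound by SP1 family factors), TATAAA (the TATA box core), ACGTG (the core of the hypoxia response element) and GGAATG (a core bound by TEAD factors) on either strand.
SNAPC1, promoter, chr14:61762220-61762419, plus strand: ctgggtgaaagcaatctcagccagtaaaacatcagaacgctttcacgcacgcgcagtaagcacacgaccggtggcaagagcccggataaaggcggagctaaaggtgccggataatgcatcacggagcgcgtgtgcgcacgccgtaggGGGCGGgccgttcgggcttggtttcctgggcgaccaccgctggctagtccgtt
FERMT2, promoter, chr14:52951051-52951250, minus strand: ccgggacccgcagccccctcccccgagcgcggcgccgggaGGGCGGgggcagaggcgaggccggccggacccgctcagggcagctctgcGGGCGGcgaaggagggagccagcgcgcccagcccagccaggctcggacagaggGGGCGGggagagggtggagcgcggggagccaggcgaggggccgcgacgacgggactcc
FRMD6, promoter, chr14:51488928-51489127, plus strand: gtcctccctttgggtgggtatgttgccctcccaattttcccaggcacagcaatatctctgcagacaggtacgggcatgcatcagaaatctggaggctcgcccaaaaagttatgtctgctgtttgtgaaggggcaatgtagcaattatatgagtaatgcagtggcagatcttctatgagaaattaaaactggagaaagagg
CCDC198, promoter, chr14:57493858-57494057, minus strand: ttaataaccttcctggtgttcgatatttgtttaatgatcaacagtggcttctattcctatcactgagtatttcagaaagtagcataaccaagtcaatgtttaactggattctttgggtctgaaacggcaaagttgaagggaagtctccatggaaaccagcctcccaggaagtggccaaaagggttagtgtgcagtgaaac
SLC25A29, promoter, chr14:100306445-100306644, minus strand: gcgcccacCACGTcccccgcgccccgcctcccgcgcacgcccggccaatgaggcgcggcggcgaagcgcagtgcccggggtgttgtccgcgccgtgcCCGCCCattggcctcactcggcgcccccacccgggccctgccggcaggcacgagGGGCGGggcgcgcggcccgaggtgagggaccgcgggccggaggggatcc
ATP6V1D, promoter, chr14:67359805-67360004, minus strand: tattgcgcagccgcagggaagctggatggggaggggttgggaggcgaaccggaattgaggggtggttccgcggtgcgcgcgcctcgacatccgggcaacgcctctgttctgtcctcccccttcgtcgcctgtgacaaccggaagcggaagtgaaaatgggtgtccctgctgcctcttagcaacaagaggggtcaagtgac
The runs differed in base composition. The G and C share was 81.5% for FERMT2 and 82.0% for SLC25A29, with 3 and 2 GGGCGG matches, against 46.5% for FRMD6 and 41.5% for CCDC198, which held none of the 4 motifs in this window. SNAPC1 had 61.0% G and C and 1 GGGCGG match, starting 53 bases before its start, and ATP6V1D had 62.5% and no match. SLC25A29 also held ACGTG on the opposite strand, starting 192 bases before its start. A strongly lowered and a strongly raised gene thus stood at each end of the range of base composition.

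Over all members with a promoter in the table (540 genes), 52.8% held GGGCGG, against 39.9% of all 27305 promoters of the same length. Among the 241 of them above the background level, which are brighter genes, the share was 65.6%. The 27305 promoters were not limited to genes named on the array and included those of chromosome 14. The sets thus differ in kind, and no matched set of genes of other chromosomes was compared. TATAAA was found in 6.11% of members and 8.92% of all promoters, ACGTG in 17.0% and 15.8%, and GGAATG in 6.67% and 9.47%. Of the members above the background level, 155 were called lower and 60.0% of these held GGGCGG, while 18 were called higher and 16 of these (88.9%) held it. The promoters of those called higher were also richer in G and C, with a median share of 75% against 63.5%. The part of base composition in the motif shares was not tested. A match describes letters in this window and is not a binding site.

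Named members were mostly lower in the knockdown cells. Over all 879, 589 (67.0%) had a lower mean and the median difference was -0.08 (log2), while 234 (26.6%) were called lower and 28 (3.19%) higher. Without the third vector array the latter count was 18. Named probe sets of the other chromosomes numbered 22902, with 11.0% called lower and 12.2% higher and a median of 0.01. The knockdown arrays lay wholly below the vector arrays for 343 members (39.0%) and wholly above for 62 (7.05%), against 20.9% and 22.3% of named probe sets elsewhere. In either direction 23.2% of named probe sets elsewhere were called.

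The size of the difference followed the level. The 396 named members at or below the median level had a median difference of -0.01. The 483 above it had a median of -0.27 with quartiles of -0.53 and -0.02, a level 0.831 times that of the vector cells, and 375 of them (77.6%) were lower. Among the 283 above the background level the median was -0.35, or 0.784 times the vector level, with quartiles of -0.65 and -0.12, and 242 (85.5%) were lower. The corresponding 8895 named probe sets of the other chromosomes had a median of 0.03, with 45.5% lower. The spread around the median was alike, with an interquartile range of 0.54 on chromosome 14 and 0.48 elsewhere. Between the background level and a log2 level of 8 the chromosome 14 median was -0.26 (86 probe sets), from 8 to 10 it was -0.42 (87), from 10 to 12 it was -0.51 (77), and above 12 it was -0.27 (33). The brightest class thus did not continue the trend. A filter on level was needed to see these values, and 32.2% of named members passed the background level, against 38.8% of named probe sets elsewhere.

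**Figure D1:**
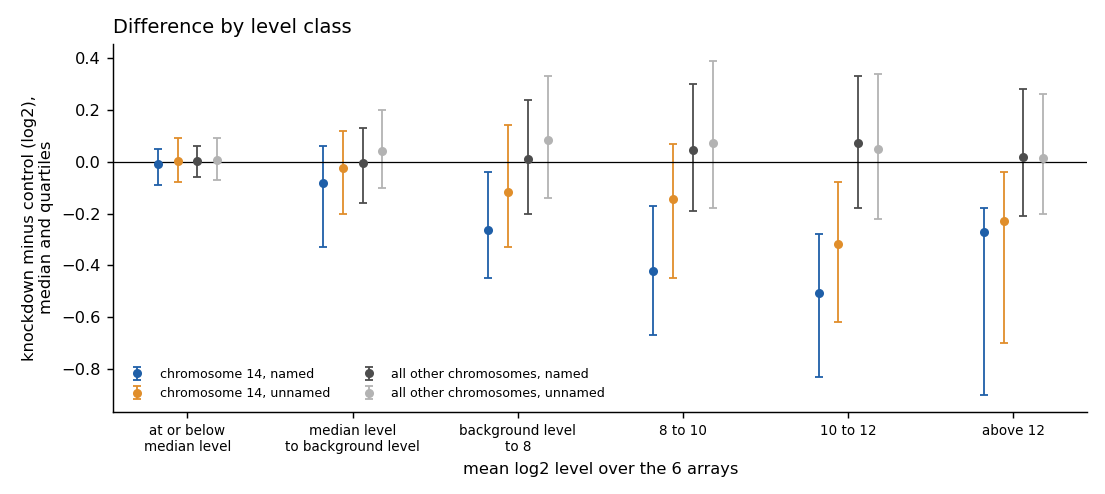
Median difference (knockdown minus control, log2; dots) with quartiles (bars) in 6 classes of mean log2 level, for named and unnamed probe sets of chromosome 14 and of all other chromosomes. Named chromosome 14 probe sets lie at -0.01 in the dimmest class and at -0.51 between levels of 10 and 12, while the classes of the other chromosomes stay near 0.

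All 3 knockdown arrays showed the lower level and none of the 3 vector arrays did. For the 483 named members above the median level, the median difference from the mean of the vector arrays was -0.25, -0.26 and -0.27 on the knockdown arrays. It was -0.01, 0.01 and 0.00 on the vector arrays, each compared, here and below, with the mean of the other vector arrays. On the knockdown arrays 76.2%, 78.1% and 76.0% of these members lay below the vector mean. The same 3 arrays gave medians of 0.01, 0.02 and 0.01 over 14263 named probe sets of the other chromosomes. The median SD of the 483 members was 0.068 among vector arrays and 0.087 among knockdown arrays, small beside their median differences on the knockdown arrays. It was not small beside every member's own difference, since the upper quartile of the differences was -0.02.

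The chromosome 14 median of named probe sets above the median level lay below that of each of the other 22 chromosomes measured, X included, whose medians ran from -0.09 to 0.18. For unnamed probe sets chromosome 14, at -0.06, came second after chromosome 19, at -0.09, and the others reached 0.17. These ranks are a description of the chromosome that the ranks were used to choose.

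**Figure D2:**
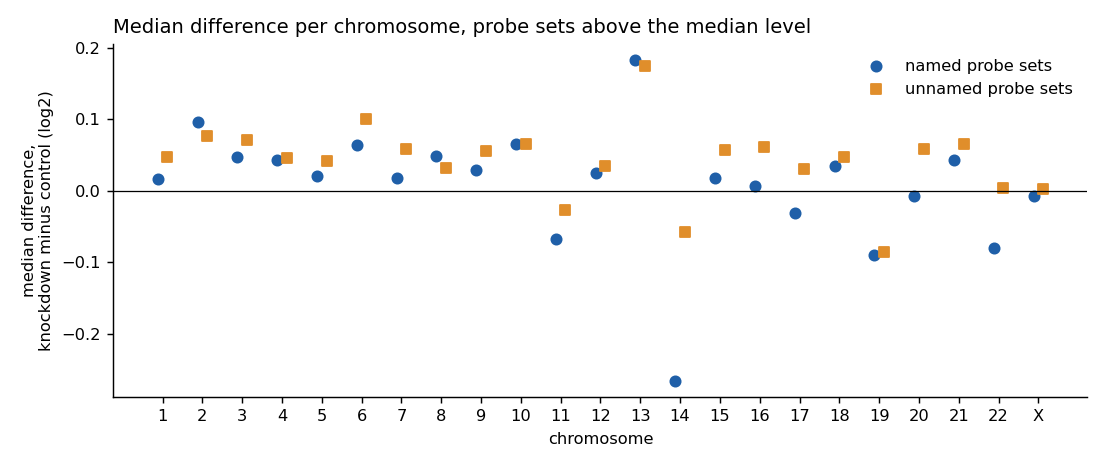
Median difference (knockdown minus control, log2) of probe sets above the median level for each chromosome, named (circles) and unnamed (squares) apart. The named median of chromosome 14 is -0.27 and the other named medians lie between -0.09 and 0.18.

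Named members were placed in gene order through the RefSeq gene table (871 of 879 placed). Cut into 10 stretches of 48 consecutive named probe sets above the median level, the chromosome was lower over most of its length and nearly level at its far end. The median was -0.41 from TTC5 to SLC7A8, -0.37 from HOMEZ to CFL2 and -0.28 from BAZ1A to MAP4K5. It was -0.41 from ATL1 to PSMA3 and -0.40 from PSMA3-AS1 to PLEKHH1, the middle of the order. It was -0.26 from PIGH to YLPM1, -0.16 from DLST to TDP1 and -0.23 from PSMC1 to EML1. In the last stretches, EVL to KLC1 and XRCC3 to IGHV3-74, it was -0.08 and -0.07. The 240 probe sets nearer the centromere had a median of -0.37 and the other 240 a median of -0.14. Counting only members above the background level, the stretches had medians of -0.60 in the first stretch (28 probe sets), -0.10 in the ninth (21) and -0.06 in the tenth (14).

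The knockdown arrays each followed this course and the vector arrays did not. Over the 10 stretches the medians of the knockdown arrays ran from -0.47 to -0.04 and those of the vector arrays from -0.04 to 0.02. In the fourth stretch the knockdown arrays stood at -0.47, -0.45 and -0.43, and in the ninth at -0.04, -0.12 and -0.07.

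**Figure D3:**
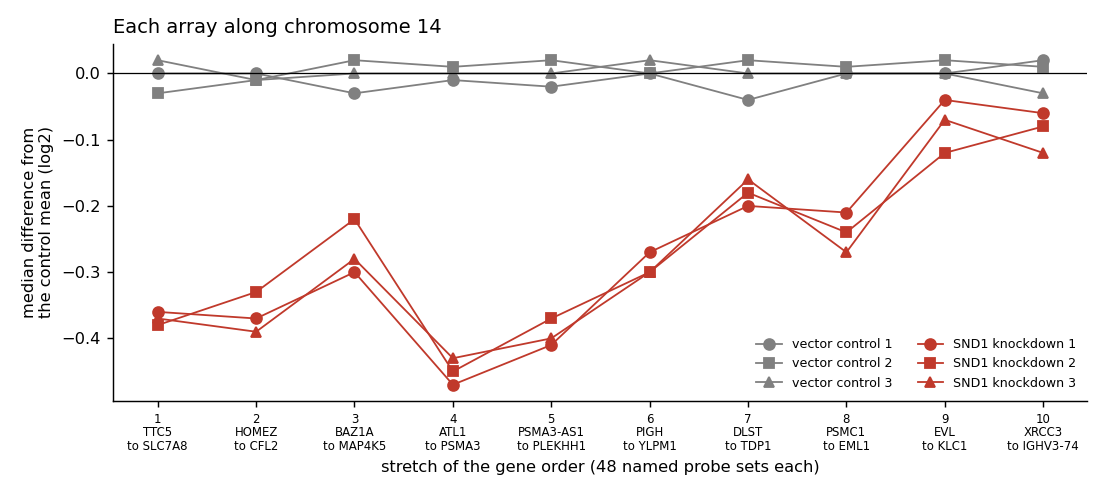
Median log2 difference from the mean of the vector arrays in each of 10 stretches of 48 named probe sets along chromosome 14, for each of the 6 arrays. A vector array is compared with the mean of the other vector arrays. The knockdown arrays run from -0.47 in the fourth stretch to -0.04 in the ninth, and the vector arrays stay between -0.04 and 0.02.

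Of 466 running windows of 15 consecutive named probe sets, 445 had a median below 0 and 21 a median at or above 0. The lowest median, -0.90, was shared by 3 overlapping windows, and the first of them, from TRMT5 to MTHFD1, had 14 of 15 lower and 12 called. It held SNAPC1 (-2.69), SYT16 (-2.29), LINC03033 (-2.17), HIF1A (-1.40), the antisense transcript HIF1A-AS2 (-1.14, within the background range), MTHFD1 (-0.99), SGPP1 (-0.98), PRKCH (-0.90, within the background range) and TRMT5 (-0.62). The sources used here do not say whether the labelled target kept its strand, so HIF1A and its antisense transcript cannot be told apart by strand. Within the same window SLC38A6 differed by -0.09 and WDR89 by -0.02, and a dim probe set of SYNE2 by 0.30. SIX4 (-0.34) and MNAT1 (-0.19) preceded it, and ZBTB25 (-0.30) and AKAP5 (-0.20), which followed, belonged to the other windows of that median.

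The highest median, 0.11, was likewise shared by 3 overlapping windows, of which the first ran from YY1 into the imprinted domain, to MIR376C, with 2 of 15 called higher. These were SLC25A29 (2.12) and WARS1 (1.00), with MIR345 (0.49) between them, and the other 12 lay between -0.24 and 0.17. Only YY1, SLC25A29, MIR345 and WARS1 of this window had a mean level above the background level. The window's median is the value of SNORD114-27, a dim probe set. The transcription factor gene YY1 next to SLC25A29 differed by -0.10. MIR342 (0.05) and DEGS2 (-0.08) preceded it. MIR376A2 (-0.28) and MIR654 (0.21), which followed, belonged to the other windows, the last of which started at MIR345 and left out SLC25A29.

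**Figure D4:**
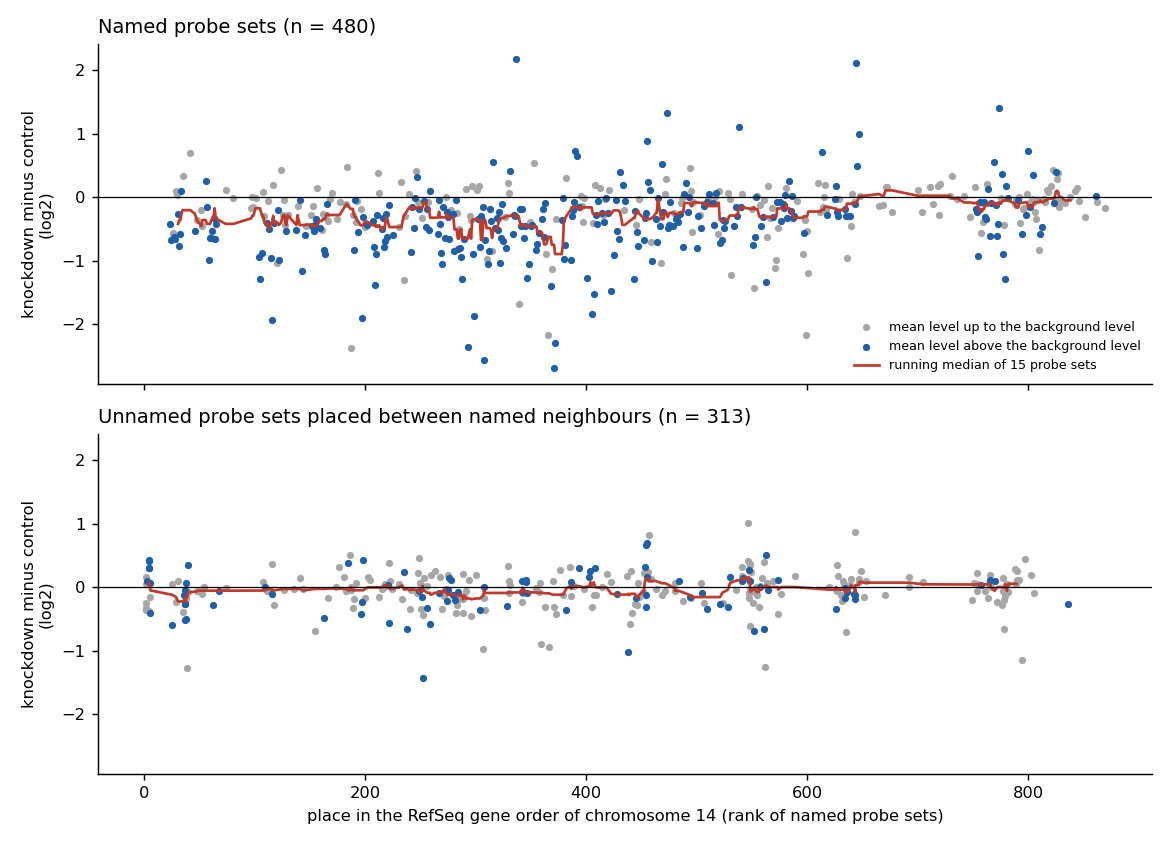
Difference (knockdown minus control, log2) of each named (upper) and unnamed (lower) probe set above the median level against its place in the RefSeq gene order of chromosome 14, with a running median of 15 probe sets. The named running median lies below 0 in 445 of 466 windows and reaches -0.90 near HIF1A. It reaches 0.11 at the imprinted domain, where most probe sets do not exceed the background level. The unnamed running median stays nearer to 0.

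Unnamed members moved less. Over all 1378 the median was -0.01, with 87 (6.31%) called lower and 21 (1.52%) higher, beside 3.53% and 5.36% of the 40826 unnamed probe sets elsewhere (8.89% in either direction). The knockdown arrays lay wholly below the vector arrays for 195 of them (14.2%) and wholly above for 96 (6.97%), beside 9.15% and 12.8% of unnamed probe sets elsewhere. The 543 above the median level had a median of -0.06, against 0.05 for unnamed probe sets elsewhere, and the 186 above the background level had -0.17. The 3 knockdown arrays gave -0.01, -0.12 and -0.07 for the 543, and the vector arrays -0.02, 0.01 and -0.01, so the first knockdown array lay within the range of the vector arrays. Without the first knockdown array the median over the 543 was -0.10, and without the second it was -0.03 and that over all 1378 was 0.003.

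Unnamed members could be placed between named neighbours only where identifier numbers followed gene order, which they did in 2 runs. There 742 were placed. Of these, 313 lay above the median level and had a median of -0.05, while the 230 above that level that could not be placed had a median of -0.13. The placed ones showed little relation to their surroundings, as 168 of 313 shared the sign of their nearest named neighbours. Of the 313, 175 were lower and 266 had lower neighbours, so many shared signs arise without any relation. Pearson's r was 0.12 and Spearman's rho 0.09 across probe sets on the same arrays, given as a description. At the same level unnamed members also differed less than named ones, as the plot by level shows.

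The most lowered unnamed members had no place in the order. TC14002040 stood at 8.76, 8.66 and 8.59 on the vector arrays and at 5.81, 6.4 and 6.10 on the knockdown arrays, at least 5.24-fold lower. TC14001727 went from 9.34, 9.63 and 9.48 to 7.58, 7.26 and 7.39, 4.21-fold lower. In neither did the groups overlap. TC14001821 was at least 3.58-fold lower (-2.44), TC14002080 was 3.45-fold lower (-1.79) and TC14002006 at least 1.79-fold lower (-1.66). The most raised was TC14002083, from 9.74, 9.44 and 9.50 to 11.41, 11.32 and 11.19, 3.35-fold higher. The next were TC14001731 (0.75), TC14002078 (0.70), TC14001287 (0.70) and TC14001285 (0.67), (the calls of TC14002078 and TC14001287 ended without the first vector array and others), and the last 2 lay between ZFYVE1 (-0.33) and NUMB (0.24). Of all members, 37 shared all 6 values with another probe set, 30 of them with another member, so these are not independent measurements.

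By annotation, most called members were protein-coding. The 555 protein-coding members included 265 above the background level, with a median of -0.36 and 229 (86.4%) lower. The 7997 elsewhere had a median of 0.03 with 45.9% lower. Of the 555, 216 (38.9%) were called lower and 27 (4.86%) higher, beside 13.3% and 14.4% of protein-coding probe sets elsewhere. The noncoding classes were mostly dim, and the 4 long noncoding RNA probe sets above the background level had a median of -0.32 with 3 lower. In these classes 11 of 82 long noncoding RNA genes (13.4%), 1 of 73 microRNA genes (1.37%) and 3 of 48 small nucleolar RNA genes (6.25%) were called lower, and none higher. Elsewhere the shares called lower were 3.89%, 0.986% and 1.41% in the same order, and those called higher 4.37%, 3.55% and 7.51%. The microRNA share called lower was thus near that elsewhere. The microRNA gene was MIR433 (-0.41, within the background range) and the small nucleolar RNA genes were SNORD9 (-0.64), SNORA28 (-0.61) and SNORD126 (-0.57, within the background range). All 4 small nucleolar RNA probe sets above the background level were lower, with a median of -0.57.

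The gene lists that follow stand beside the chromosome as a whole, where 26.6% of named members were called lower and 3.19% higher. Above the background level these shares were 60.4% and 7.42%, and nothing about a function is read from a list's counts. In the list of transcription factors and other regulators, 14 of 42 probe sets were called lower and 1, FOS, higher, with a median of -0.11. SNAPC1, a subunit of the complex that activates small nuclear RNA promoters, had the largest difference of all named members. It stood at 12.74, 12.97 and 12.87 on the vector arrays and at 10.15, 10.18 and 10.17 on the knockdown arrays. Every knockdown array lay more than 2 log2 units below every vector array, and the level was 6.47-fold lower (12.86 ± 0.11 against 10.17 ± 0.02, SD, n = 3). HIF1A, the oxygen-regulated subunit of the hypoxia-inducible factor, was measured at 16.47, 16.46 and 16.51 and at 14.99, 15.15 and 15.09. The groups did not overlap and the level was 2.64-fold lower, although the vector values exceeded 16, the most that a 16-bit scanner can give in log2 units, so the scale there is not the scanner's own. ZFP36L1, which binds AU-rich elements and promotes mRNA decay, was 2.79-fold lower (-1.48). Its second probe set differed by -0.11 within the background range and was not called. TOX4, a DNA-binding subunit of a phosphatase complex, was 1.57-fold lower (-0.65). FOS, an immediate early factor, differed by 0.46 within the background range.

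Cytoskeleton, adhesion and matrix genes included several of the largest differences, with 16 of 34 probe sets called lower, 2 higher and a median of -0.24. FERMT2, encoding the integrin activator kindlin, was measured at 11.04, 11.14 and 11.15 on the vector arrays and at 8.47, 8.55 and 8.64 on the knockdown arrays. The groups were far apart, with a 5.88-fold lower level (11.11 ± 0.06 against 8.55 ± 0.08, SD, n = 3). AJUBA, a LIM protein of cell junctions, went from 11.02, 11.34 and 11.27 to 9.30, 9.42 and 9.12, again without overlap, and was 3.81-fold lower. NID2, the basement membrane protein nidogen, was 3.67-fold lower, with vector arrays at 11.91, 11.90 and 12.02 and knockdown arrays at 10.08, 10.09 and 10.02. EML5, a microtubule-associated protein gene, differed by -1.44 within the background range. ACTN1, encoding the actin cross-linker alpha-actinin, was 1.88-fold lower and KTN1, encoding the kinesin-binding protein kinectin was 1.73-fold lower (-0.79). AHNAK2, a very large scaffold protein gene, went the other way and was 1.66-fold higher, from 12.50, 12.60 and 12.76 to 13.46, 13.45 and 13.14. Outside the lists, FRMD6, a FERM-domain protein that acts upstream of the Hippo kinases, stood at 9.18, 9.53 and 9.49 and at 7.03, 7.11 and 7.0, 5.12-fold lower.

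Genes of mitosis, replication and DNA repair were mostly lower, with 20 of 31 probe sets (64.5%) called lower, none higher and a median of -0.39. Of the 31, 24 lay above the background level. All named members above that level had similar values, with 60.4% called lower and a median of -0.35. CDKN3, a phosphatase that acts on cyclin-dependent kinases, was measured at 11.88, 12.03 and 11.79 and at 10.78, 10.82 and 10.93. The groups did not overlap and the level was 2.08-fold lower. DLGAP5, a spindle assembly factor, was 2.05-fold lower (-1.04), SUPT16H, a subunit of the histone chaperone FACT, was 1.99-fold lower (-0.99), and APEX1, the abasic site endonuclease, was 1.71-fold lower (-0.77). KLC1, a kinesin light chain whose place in this list is uncertain, was 1.87-fold lower (-0.90). A probe set that names both COA8 and KLC1, above the background level, differed by 0.01 and was not called.

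All 8 proteasome genes of the chromosome had a lower mean, 5 of them were called lower and the median was -0.33, a level 0.797 times that of the vector cells. PSME1, a subunit of the proteasome activator, stood at 11.82, 11.80 and 11.83 and at 11.28, 11.35 and 11.20, 1.45-fold lower. PSMA3, an alpha subunit of the core, was 1.37-fold lower (-0.45), PSMB5, a catalytic beta subunit and drug target, was 1.32-fold lower (-0.40) and PSME2, the partner of PSME1, was 1.27-fold lower (-0.34). PSMA6, another alpha subunit, was measured at 13.75, 13.72 and 13.72 and at 13.34, 13.60 and 13.45. Its knockdown arrays all lay below its vector arrays, but it was not called. The calls of PSMB5 and PSME2 ended when single arrays were left out (5 of 6 arrays for PSMB5, 3 of 6 for PSME2), with differences of -0.46 to -0.33 and -0.33 to -0.30. The differences of this group ran from -0.54 to -0.11, and those of the 7 probe sets above the background level from -0.54 to -0.27. The list's median of -0.33 was near the -0.35 of all named members above the background level. Differences of the adhesion list, with 17 of 34 probe sets above that level, ran from -2.56 to 0.73.

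RNA processing and translation genes had 22 of 36 probe sets called lower and 2 higher, with a median of -0.36. RPL36AL, a ribosomal protein gene copy, was 1.85-fold lower (-0.89). EIF2B2, a subunit of the exchange factor that recharges eIF2, was 1.72-fold lower (-0.78). PAPOLA, the main nuclear poly(A) polymerase, was 1.18-fold lower (-0.24), a call that ended without any 1 array. The 2 higher ones were WARS1, tryptophanyl-tRNA synthetase, and DICER1, which cuts microRNA precursors. WARS1 stood at 10.25, 10.24 and 10.31 on the vector arrays and at 11.19, 11.31 and 11.28 on the knockdown arrays, 2.00-fold higher. DICER1 was 1.64-fold higher, from 10.97, 11.04 and 10.98 to 11.77, 11.72 and 11.64. Its neighbours above the median level were lower, GSC by -0.23 and MIR3173 by -0.15, both within the background range.

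In the signalling list 13 of 36 probe sets were called lower and 2 higher, with a median of -0.14. DAAM1, a formin of Wnt signalling, was 2.41-fold lower (-1.27), SOS2, a Ras exchange factor, 1.81-fold lower (-0.85) and the kinase MAP4K5 1.75-fold lower (-0.81). BMP4, a secreted ligand, and PRKCH, a protein kinase C, differed by -0.97 and -0.90 within the background range. AKT1, the survival kinase, differed by -0.58. The 2 called higher were NUMB, a Notch inhibitor, at 0.24 and JAG2, a Notch ligand, at 0.35.

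Metabolic and mitochondrial genes were mixed, with 18 of 54 probe sets called lower and 5 higher and a median of -0.07. PYGL, the liver type of glycogen phosphorylase, was measured at 13.75, 13.78 and 13.76 and at 12.44, 12.46 and 12.52, 2.44-fold lower. FUT8, which adds the core fucose to N-glycans, was 2.43-fold lower (-1.28). Against these, SLC25A29, a mitochondrial carrier of basic amino acids, was higher: its vector arrays stood at 6.26, 6.31 and 6.30 and its knockdown arrays at 8.32, 8.52 and 8.37, 4.33-fold higher. CKB, the brain type creatine kinase, went from 8.86, 8.75 and 8.90 to 10.39, 10.31 and 10.05, 2.66-fold higher. Neither gene's groups overlapped.

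Of 31 traffic probe sets 17 were called lower and 2 higher, with a median of -0.28. SYT16, of the synaptotagmin family, went from 9.13, 9.20 and 9.14 to 6.87, 6.85 and 6.88, 4.90-fold lower. Its spread within groups was among the smallest shown here, with SDs of 0.04 and 0.02. SNX6, a sorting nexin of the retromer pathway, was 2.60-fold lower (-1.38) and ARMH4 at least 1.74-fold lower (-1.69). STON2, an endocytic adaptor, was 2.14-fold higher, from 6.41, 6.54 and 6.38 to 7.62, 7.63 and 7.38.

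Chaperone, stress and ubiquitin genes had 12 of 25 probe sets called lower and 2 higher, with a median of -0.23. HSP90AA1, the inducible cytosolic HSP90, was 1.89-fold lower, from 16.06 ± 0.05 to 15.14 ± 0.06 (SD, n = 3) without overlap, again near the scanner ceiling. NEDD8, the ubiquitin-like modifier of cullins, was 1.78-fold lower (-0.84) and ERO1A, the oxidase of the endoplasmic reticulum, 1.72-fold lower (-0.78). OTUB2, a deubiquitinase, differed by -0.90 within the background range. HSPA2, a testis-enriched HSP70 gene, was 1.66-fold higher, from 9.24, 9.20 and 9.27 to 9.86, 10.09 and 9.97, and BAG5, a regulator of HSP70, differed by 0.37.

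Interferon and inflammatory genes had 8 of 15 probe sets called lower and 3 higher, with a median of -0.23. IFI27, an interferon-induced gene, stood at 7.13, 7.09 and 7.16 and at 5.15, 4.93 and 4.79, at least 1.80-fold lower. NFKBIA, the inhibitor of NF-kappaB, was 1.54-fold lower (-0.62), TRAF3, an adaptor of innate receptors, was 1.53-fold lower (-0.62), and LGALS3, galectin-3, was 1.18-fold lower (-0.23). The call of NFKBIA ended without the first or the third vector array (-0.55 and -0.65), and that of LGALS3 without any 1 array. TNFAIP2, a TNF-induced gene, was 1.47-fold higher (0.56). The other 2 higher members were FOS (0.46) and PELI2, a ubiquitin ligase of innate signalling (0.42).

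Cilia and centrosome genes had 9 of 20 probe sets called lower and none higher, with 19 of 20 lower in mean and a median of -0.26. NIN, the centrosomal protein ninein, was 1.92-fold lower (-0.94) and TTC8, a subunit of the BBSome, 1.54-fold lower (-0.63). TTC9 was 2.45-fold lower (-1.30) and PCNX1, a membrane protein gene of the pecanex family, 1.45-fold lower (-0.54). The place of TTC9 and PCNX1 in this list is uncertain. DYNC1H1, the heavy chain of cytoplasmic dynein, differed by -0.23 and was not called. The lists overlap and were chosen with results of these data known. Together they held 318 probe sets, with 142 called lower and 18 higher, and the 278 in no list had 87 and 7.

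Another 3 of the most lowered members were in none of these lists or only in a gene family. HEATR5A, a HEAT repeat protein gene, went from 9.51, 9.53 and 9.65 to 7.54, 7.79 and 7.67, 3.72-fold lower. LINC03033, a noncoding gene beside HIF1A, was at least 1.34-fold lower (-2.17). Of 38 long intergenic noncoding probe sets it and LINC02274 (-1.04, within the background range) were called lower and none higher, with a median of 0.01 over the family. BNIP3P1, a pseudogene of BNIP3, was at least 1.36-fold lower, from 6.53, 7.07 and 6.59 to 4.97, 3.98 and 4.12, with the largest spread among them. As a near copy of BNIP3 its value is uncertain.

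The loci used by other cell types lay almost wholly within the background range. No probe set was called in either direction among 25 olfactory receptor genes, 34 T cell receptor segments, 52 immunoglobulin heavy chain segments and 40 small nucleolar RNAs of the SNORD112 to SNORD114 families. Their medians were -0.02, 0.02, 0.00 and -0.03, and 2 immunoglobulin segments, IGHD2-21 (-0.09) and IGHD2-15 (0.39), had means above the background level. The largest differences of the families lay within the background range: OR11H4 at -0.23, TRAJ1 at -0.25, IGHD3-22 at 0.43 and SNORD114-17 at 0.33. The granule protease genes CTSG, CMA1, GZMB and GZMH differed by -0.05 to 0.05 and did not exceed 4.24 on any array. Of 10 serpin A genes SERPINA1, the alpha-1-antitrypsin gene, was called lower (-0.37) within the background range, a call that ended when any of 4 of the 6 arrays was left out. Of 9 RNase A family probe sets 3 were called higher, 2 of them of RNASE10, and RNASE1, the pancreatic-type ribonuclease of vessels, went from 3.90, 3.96 and 3.88 to 4.56, 4.52 and 4.74, a difference of 0.69 within the background range.

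The imprinted DLK1-DIO3 genes were within the background range in both groups. DLK1, a membrane ligand of the Notch family, stood at 3.96, 3.96 and 3.91 and at 4.03, 3.97 and 3.98. DIO3, a thyroid hormone deiodinase, differed by 0.10, RTL1 by -0.07 and MEG9 by -0.04, and none was called. The microRNA genes of the domain were likewise dim. The 75 microRNA symbols had a median of 0.00 and 2 were called lower, 1 of them the host gene MIR3171HG (-0.93, within the background range). A probe set of a microRNA gene measures the precursor region and is no measure of the mature microRNA. Of the 73 annotated microRNA genes 71 matched the RefSeq sequence table, with 122 mature microRNAs and 106 different seeds. In all, 14 seeds were shared by 2 or more genes. Mature sequences of 3 seed groups are shown because genes of the domain share them (RefSeq, GRCh38.p14, capitals mark the seed, bases 2 to 8).
hsa-miR-376a-3p, chr14:101040118-101040138, plus strand: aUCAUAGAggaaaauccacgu
hsa-miR-376b-3p, chr14:101040497-101040518, plus strand: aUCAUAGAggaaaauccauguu
hsa-miR-494-5p, chr14:101029648-101029670, plus strand: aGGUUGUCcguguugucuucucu
hsa-miR-323b-5p, chr14:101056233-101056255, plus strand: aGGUUGUCcguggugaguucgca
hsa-miR-410-5p, chr14:101065925-101065945, plus strand: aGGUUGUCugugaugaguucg
hsa-miR-300, chr14:101041414-101041435, plus strand: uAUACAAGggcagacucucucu
hsa-miR-381-3p, chr14:101045968-101045989, plus strand: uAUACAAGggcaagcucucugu
The first seed group, of miR-376a and miR-376b, had lower means throughout: MIR376A2 differed by -0.28, MIR376A1 by -0.22 and MIR376B by -0.15. In the second, MIR494 differed by -0.11, MIR323B by 0.01 and MIR410 by -0.37. In the last, MIR300 differed by 0.04 and MIR381 by 0.02. All of these lay within the background range and none was called.

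Some raised members stood between lowered ones and some beside each other, such as HSPA2 (0.73) and PLEKHG3 (0.64). Of 27 named, placed members above the median level that were called higher, 12 had a lower mean on both sides. Another 11 had it on 1 side and 4 on neither (RNASE10, NUMB, FOS and WARS1). Of all named members above the median level 77.6% had a lower mean, so lower neighbours were usual and nothing is read from these counts. CCDC198, a coiled-coil protein gene, stood at 6.41, 6.32 and 6.45 on the vector arrays and at 8.71, 8.51 and 8.47 on the knockdown arrays, 4.50-fold higher, between NAA30 (-0.30) and ARMH4 (-1.69). ENTPD5, a nucleoside diphosphatase of the endoplasmic reticulum, went from 8.69, 8.67 and 8.70 to 9.96, 10.09 and 10.01, 2.52-fold higher, and followed COQ6 (0.28) and preceded ALDH6A1 (-0.49). Likewise GCH1, which starts tetrahydrobiopterin synthesis, differed by 0.56 between SAMD4A (-0.85) and WDHD1 (-0.49). RTN1, a reticulon, differed by 0.55, within the background range, between JKAMP (-0.43) and PCNX4 (-0.83). PTGR2, a prostaglandin reductase, differed by 0.52 between LINC02274 (-1.04, within the background range) and ZNF410 (-0.24). PAPLN, a matrix protein gene, was 1.85-fold higher (0.89) and stood beside NUMB, which was also higher.

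**Figure D5:**
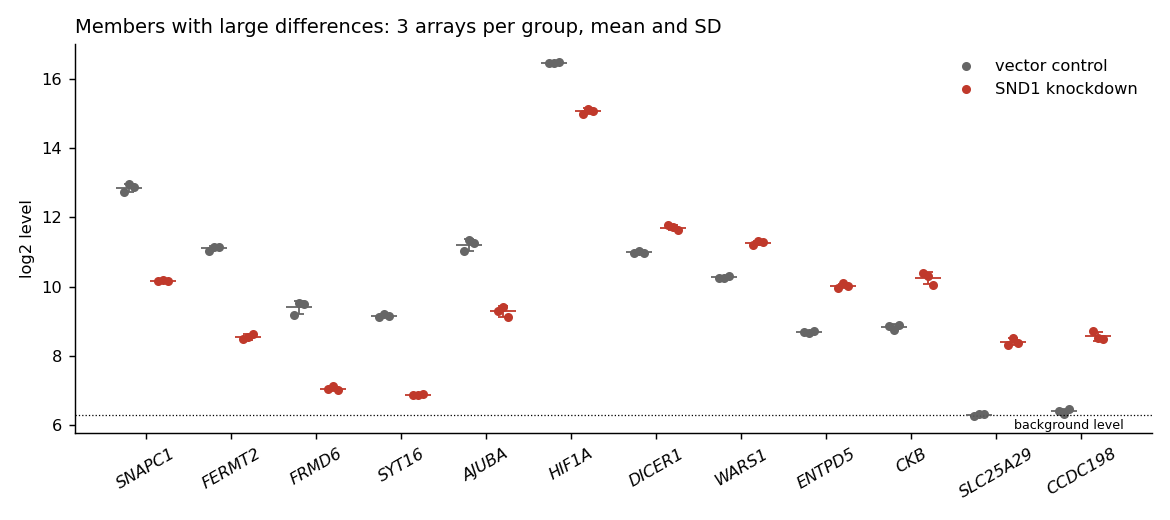
Log2 levels of 12 members on the 3 vector (grey) and 3 knockdown (red) arrays, with group means (lines) and SD (bars); the dotted line is the background level of 6.28. SNAPC1 lies at 12.86 in vector and 10.17 in knockdown cells and CCDC198 lies at 6.39 in vector and 8.56 in knockdown cells, with no overlap between groups in any of the 12.

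The members nearest to the chromosome's median, by rule, were DLST, VCPKMT, OSGEP, PSMA6 and ATP6V1D. ATP6V1D, a subunit of the vacuolar proton pump, was measured at 10.12, 10.13 and 10.09 and at 9.83, 9.84 and 9.85, 1.21-fold lower (-0.28). DLST, a subunit of the oxoglutarate dehydrogenase complex, stood at 12.31, 12.09 and 12.22 and at 11.78, 11.99 and 12.05, 1.20-fold lower (-0.27). In both genes the knockdown arrays lay below all vector arrays, though DLST was not called and the call of ATP6V1D ended when any of 4 of the 6 arrays was left out. A second, dimmer probe set of ATP6V1D differed by 0.18.

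Of 15 genes with more than 1 named probe set, 12 had the same direction on all of them, and ATP6V1D, SYNE2 and NPAS3 did not. Both probe sets of RNU6-1 had the same means (12.9 and 12.71), so their shared direction is no independent agreement. Many of the genes had a probe set within the background range. Of named members above the median level 77.6% were lower, so a shared direction was usual and nothing is read from this count. GPR135, an orphan receptor, differed by -1.05 and, within the background range, -0.39, FBXO34, an F-box protein gene, by -0.64 and -0.11, and MIA2, a protein of secretory cargo export, by 0.32 and, within the background range, 0.42. Of the 23 probe sets with several symbols, which name no gene, 6 were called lower and none higher, with a median of -0.09.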

How the data were processed

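RNA of 3 vector and 3 SND1 knockdown samples of SKOV3 cells was hybridised to 6 Affymetrix arrays, 1 colour each. The authors deposited expression as log2 values, 1 for each probe set and array, made with RMA (background correction, quantile normalization and a summary over probes) per the submitters' processing notes, which give no version. The sources used here name no build for the array's identifiers, and scanner files, which could show batches, were not used here. Probe sets were named through the platform annotation and placed in order through the RefSeq gene table (GRCh38.p14), used for names and order only. Of 879 named members 874 matched (758 by Entrez identifier, the rest by symbol), 3 of them to another chromosome. Unnamed members were placed between named neighbours in 2 runs of identifiers whose order equalled gene order (Spearman's rho of 1.0 over 440 and 310 named members).

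Differences are the mean of the knockdown arrays minus the mean of the vector arrays, fitted in R 4.3.3 with limma 3.58.1 (lmFit, then eBayes) over all 67528 transcript clusters, 2-sided, without filter or covariate, and adjusted by Benjamini-Hochberg at 0.05. The fit was tested on simulated data. The number of arrays limits the precision. No probe set has a detection call, so the background level of 6.28 stands in for one. Replicate numbers do not pair samples: deviations of same-numbered arrays correlated at -0.01, -0.07 and -0.10. Alternatives were another normalization, centring, array weights, level filters, a replicate block, 1 probe set per gene and leaving out each array.

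Chromosome, members and the 21 gene lists were chosen with earlier results of these data known. Genes named by rule were the 10 largest differences in each direction without overlap between groups and above the background level in a group, up to 4 members of each symbol list with the largest difference plus its brightest, the largest of each family, window neighbours, the 5 unnamed members largest in each direction and the 5 nearest the chromosome's median, with DLGAP5, ACTN1, NID2, IFI27 and DICER1. Other genes named (window members, neighbours of raised genes, members of small counts, AKT1, GPR135, FBXO34 and MIA2) were chosen after their values were seen. Promoter and microRNA sequences are RefSeq's.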

Additional observations from a re-analysis of the deposited data

How the results depend on the processing

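The median of named probe sets above the median level, -0.266, was -0.274 after quantile normalization once more, -0.258 with array weights, -0.351 for probe sets above the background level, and -0.269 to -0.252 when 1 array was left out. That of unnamed probe sets above the median level, -0.058, was -0.166 above the background level and -0.099 to -0.027 with 1 array left out. Over all named probe sets the median of -0.077 became -0.266, and over all unnamed ones the median of -0.013 became -0.058, when probe sets up to the median level were dropped. With 1 array left out these medians ran from -0.087 to -0.072 and from -0.023 to 0.003, the last, without the second knockdown array, being the only change of sign among these medians. The causes were not tested. With 1 array left out, named calls numbered 166 to 194 lower and 18 to 24 higher, and unnamed calls 63 to 101 lower and 14 to 23 higher, from fewer samples. The replicate numbers share no deviations, and a replicate block left 169 named calls lower and 20 higher. Of 1153 recomputed values of named genes and unnamed members, 1072 kept their direction and side of the threshold, 74 in 14 of them lost the call, 7 in 4 of them gained it and none changed direction.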
